A study of Oncorhynchus mykiss with 8 samples.

Results

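Hemoglobin and band 3 transcripts were followed in the liver of small and large rainbow trout on a microarray made from Atlantic salmon sequences. The 13 probes were 7 for alpha subunits, 5 for beta subunits and 1 for band 3. They were taken from 43603 probes as those whose platform symbol is hba or hbb, or whose name in the liver or muscle tables of the study contains hemoglobin or band 3. In a limma fit at the p and fold thresholds of the study's methods, 6 of the 13 gave less signal in small Sept. fish. Of all probes tested 1.21% did so. In the Dec. lot 10 of the 13 were higher in small fish, against 2.09% of all probes tested. By the methods' t-test over arrays 5 passed in Sept. and 4 in Dec., against 0.75% and 1.19%. In the limma fit the 6 probes of the Sept. lot also passed in the Dec. lot, in the opposite direction, as did 0.0571% of all probes tested in both. Of the 6, 4 did so as well in a fit of all 8 arrays with a dye term and pool pair as random block. These 4 are in the study's liver tables of both lots. Of the 4 members in no liver table, 1 passed in Sept. and 2 in Dec. No probe of the array passed an adjusted threshold in limma. The paper also measured hemoglobin subunit alpha by quantitative PCR in liver of the Sept. fish used for the arrays. It reports a significant difference between small and large fish that bore out its array result. That measurement is a separate method on the same fish, covered the Sept. lot only, and was not re-analysed here.

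Hemoglobin is the oxygen carrier of red blood cells and is built of paired alpha and beta subunits, each around a heme group with an iron atom. Band 3 is the anion exchanger of the red cell membrane, which swaps bicarbonate for chloride as blood takes up and gives off carbon dioxide, and in mammals it also anchors the membrane skeleton. The red cells of fish keep their nucleus and carry mRNA, so liver tissue brings transcripts of the blood it holds. In a bulk sample of this kind fewer red cells and less RNA per cell cannot be told apart.

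The fish were juveniles of the Lyndon strain, all reproductively immature and of about the same age when sampled. Feeding was ad libitum by the labels and by a ration set to body weight in the study's methods, with a fast before weighing. The Sept. and Dec. lots (hatching times in the labels, months of the parental crosses in the study's methods) came from different parents and were sampled in different months, so lot, season and parents cannot be told apart. Each lot was made of paternal half-sib families with 1 male for the lot, and the 2 largest and 2 smallest fish of each family were pooled by rank. One pair of pools set the largest against the second smallest fish of the families and the other the second largest against the smallest, with mRNA of 5 fish in each pool. Each of the 8 arrays set a pool of small fish against a pool of large fish within a lot. Every such pair was hybridized 2 times, the dyes Alexa Fluor 647 and Alexa Fluor 555 changing places. The design text counts 4 replicates per lot, but the arrays of a dye exchange carry the same pools, and a lot was taken here as 2 replicates. Values are log2 ratios of small over large fish, so that a value above 0 means more signal from small fish, and standard errors (SE) are those of limma with n = 2 pool pairs per lot. Ratios of this kind give no level of a transcript, so the purity of the liver pools could not be checked against tissue markers.

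Which gene copy a probe reads was not determined. The probes were made from expressed sequences of Atlantic salmon and were hybridized with cDNA of another species, rainbow trout. The RefSeq trout gene table holds alpha and beta genes lying together on chromosomes 12 and 13, with a gene bearing the synonym slc4a1 (the symbol of band 3) on chromosome 13. It also holds a gene with the synonym hbad on chromosome 20 and slc4a1b on chromosome 16. Of the platform's 184 accessions 0 were found in that gene table. The alpha probe A_05_P249524 and the beta-1 probe A_05_P453042 carry the same platform accession, and 3 alpha probes (A_05_P249524, A_05_P449312 and A_05_P480657) are marked in the study's tables as assigned to another gene by the array maker. Probes of near-identical subunits may share targets, and the 13 are therefore not 13 independent measurements. All 13 had values on all 8 arrays.

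How a probe came by its name also bears on what its values can show. The liver tables list only probes the study called on these arrays, and 5 of the 13 (A_05_P441202, A_05_P480657, A_05_P269349, A_05_P463622 and A_05_P488772) are known as hemoglobin or band 3 from them alone, so their liver values are a description. The other 8 have a platform symbol or a name in the muscle tables, which list probes called in white muscle of the same fish. Of these 8, 4 stand in no liver table.

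Of the alpha probes, 4 of 7 were past the thresholds in both lots. All of these but A_05_P491417 are marked as assigned to another gene by the array maker. Probe A_05_P249524 had Sept. values of -0.88 and -0.56 in pool pair 1 and -0.45 and -0.56 in pool pair 2, in each case with the small fish in Alexa Fluor 647 first. Its Dec. values were 0.20 and 0.93 in pair 1 and 0.40 and 1.11 in pair 2. No Sept. array of this probe reached the lowest Dec. array, and its mean was -0.62 in Sept. and 0.66 in Dec. (SE 0.14 each). On the linear scale this was 1.53-fold more in large Sept. fish and 1.58-fold more in small Dec. fish.

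A_05_P449312 followed the same course. In Sept. it read -0.89, -0.50, -0.32 and -0.45, and in Dec. 0.31, 1.21, 0.44 and 0.97, in the same order of pools and dyes. The lots did not overlap, and the means were -0.54 and 0.73 (SE 0.14 each). Probe A_05_P491417, which carries the symbol hba, had -0.61, -0.57, -0.09 and -0.80 in Sept. and 0.83, 1.04, 0.64 and 0.60 in Dec. Its Dec. arrays were the closest together among the 13 (SD 0.20 over 4 arrays), and its means were -0.52 and 0.78 (SE 0.15 each).

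A_05_P480657, named only through the Dec. liver table, gave -0.31, -0.89, 0.03 and -0.62 in Sept. One Sept. array was thus just above 0, and the mean was -0.45 (SE 0.15), past the thresholds. That Sept. call was lost in the fit with a dye term and pool pair as random block (SE 0.21) and in the methods' t-test over arrays, and the Sept. value was -0.14 with small fish in Alexa Fluor 647 only. In Dec. the probe read 0.64, 1.37, 0.37 and 1.10, with a mean of 0.87 (SE 0.15), the highest among the alpha probes.

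The other 3 alpha probes passed in at most 1 lot. A_05_P249379, a second hba probe with the accession of A_05_P491417, read -0.64, -0.45, -0.02 and -0.29 in Sept. with a mean of -0.35 (SE 0.15), which did not pass. Its Dec. values were -0.12, 1.22, 0.13 and 0.69 around a mean of 0.48 (SE 0.15), which passed although 1 array lay below 0. A_05_P441202, named only through the Sept. liver table, was below 0 on all Sept. arrays (-0.54, -0.30, -0.94 and -0.66). Its Dec. arrays ran from 1.41 and 0.87 in pair 1 to 0.03 and -0.75 in pair 2, so that its SE of 0.38 was the largest of the 13 and neither mean (-0.61 in Sept., 0.39 in Dec.) passed. The Sept. mean did pass with the Sept. lot fitted alone (SE 0.15) and in the methods' t-test over arrays (SE 0.13). It also passed with the replicate block (SE 0.23), but not in the random block fit (SE 0.31). The third, A_05_P332705 (hba by its symbol), stayed near 0 in Sept. at 0.19, 0.07, -0.05 and -0.11. In Dec. it had 0.52 and 0.65 with the small fish in Alexa Fluor 647 against -0.83 and 0.14 in the opposite orientation, and its means were 0.03 and 0.12 (SE 0.18 each).

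Among the beta subunits 2 of 5 passed in both lots, and both are named beta-1. A_05_P453042 had Sept. values of -0.72, -0.55, -0.43 and -0.74 and Dec. values of 0.75, 0.94, 0.28 and 0.86. Each lot kept 1 sign on its 4 arrays, with means of -0.61 and 0.71 (SE 0.14 each), or 1.53-fold more in large Sept. fish and 1.63-fold more in small Dec. fish. A_05_P365862 is in no liver table and has its name from the muscle tables. It read -0.39, -0.83, 0.0043 and -0.47 in Sept. and 0.13, 1.40, 0.12 and 1.28 in Dec., with means of -0.42 and 0.73 (SE 0.15 each). The Sept. call was lost in the random block fit (SE 0.25), in the methods' t-test over arrays, with the Sept. lot fitted alone, and without any 1 of the 4 pool pairs. Its 2 highest Dec. values were those with the small fish in Alexa Fluor 555.

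The remaining 3 beta probes differed among themselves. A_05_P488772 had the highest Dec. mean of the 13, 1.11 (SE 0.19), from arrays at 0.54, 2.11, 0.60 and 1.2, or 2.16-fold more in small fish. In Sept. the same probe split by dye, with -0.58 and -0.31 against 0.11 and 0.81, and averaged 0.01. A_05_P463622 had -0.16, -0.57, 0.21 and -0.83 in Sept. with a mean of -0.34 (SE 0.17), which did not pass. Its Dec. arrays were 0.0029, 0.92, 0.87 and 1.05, a mean of 0.71 (SE 0.17) that passed with 1 array at about 0. A_05_P395622, named in a muscle table, showed no shift past the thresholds in either lot. Its Sept. arrays lay at 0.35, -0.37, -0.09 and -0.11 and its Dec. arrays at 0.48, -0.76, 0.71 and -0.07, with means of -0.06 and 0.09 (SE 0.16 each).

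Band 3 (A_05_P269349) is named only through the Dec. liver table, so its Dec. values are a description. They were 0.06 and 1.01 in pair 1 and 0.30 and 0.91 in pair 2, all above 0, with a mean of 0.57 (SE 0.12) or 1.49-fold more in small fish. In Sept., which played no part in its naming, the arrays lay at -0.89, 0.44, -0.21 and -0.18. The mean of -0.21 (SE 0.12) did not pass, and the arrays of pool pair 1 had opposite signs.

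**Figure D1:**
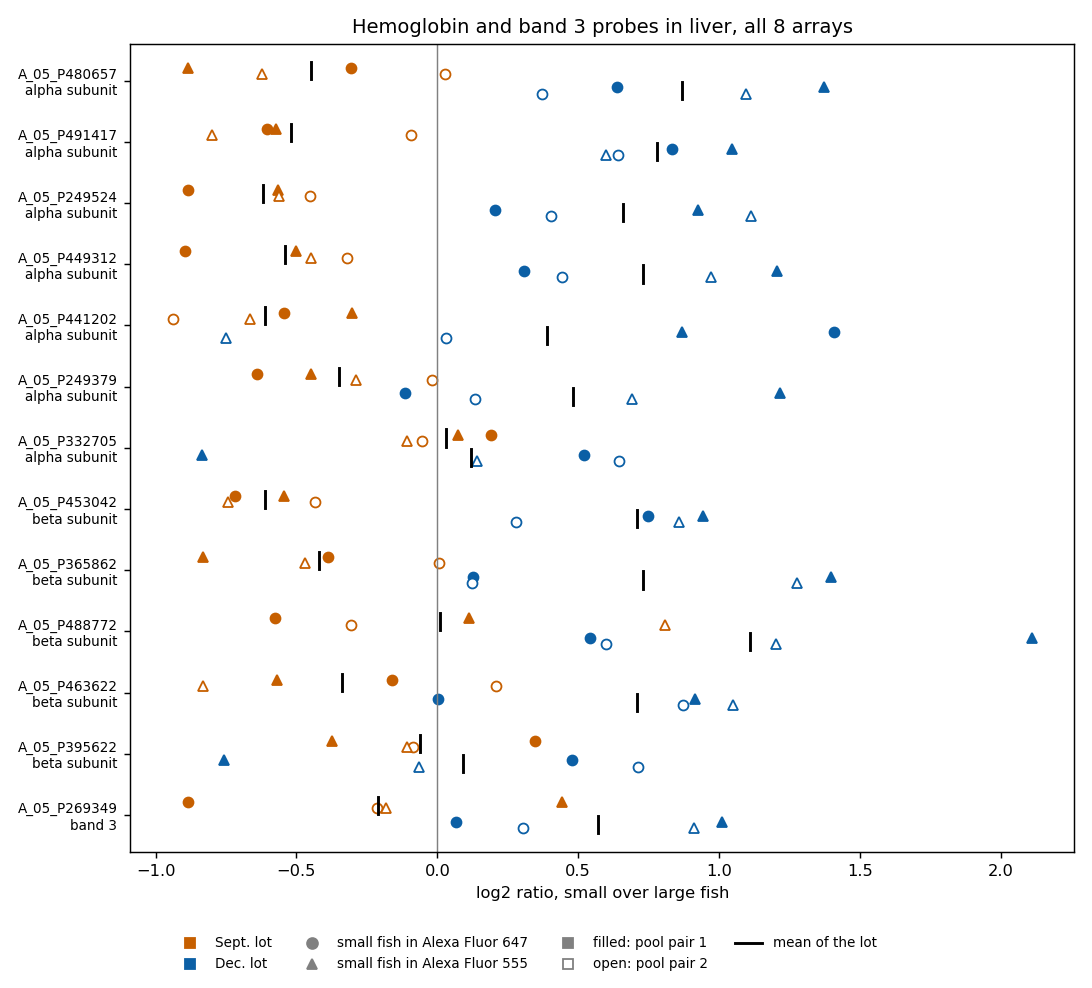
Log2 ratio of small over large fish (x axis) for each of the 13 probes (rows) on each of the 8 arrays, with Sept. in orange, Dec. in blue, circles and triangles for the dye of the small fish, filled and open symbols for pool pairs 1 and 2, and a black bar at the mean of the lot. In 4 rows (A_05_P249524, A_05_P449312, A_05_P491417 and A_05_P453042) all Sept. symbols lie left of 0 and all Dec. symbols right of it, while A_05_P332705 and A_05_P395622 straddle 0 in both lots.

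Over all members, point estimates were below 0 for 11 of 13 in Sept. and above 0 for 13 of 13 in Dec. The medians were -0.42 in Sept. and 0.71 in Dec., against 0.0008 and 0.0082 over all probes tested. By subunit, the alpha medians were -0.52 and 0.66 and the beta medians -0.34 and 0.71. A probe was counted as past the thresholds at an unadjusted limma p of 0.05 or less and a fold of at least 1.2. In Sept. 6 of 13 passed below 0 and 0 of 13 above 0, where 1.21% and 1.52% of the 38679 probes tested passed in these directions. In Dec. 10 of 13 passed above 0 and 0 of 13 below 0, against 2.09% and 2.75% of 34014 probes. Because the liver tables helped to choose the members, these shares describe the members and are no test of them.

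Counted apart, the 8 probes named outside the liver tables included 5 past the thresholds in Sept. and 6 in Dec. The study lists all 5 as higher in white muscle of large Sept. fish too, the same direction in the same fish. The Sept. count is therefore not free of selection by size. A_05_P249379 and A_05_P332705, named by platform symbol alone, did not pass in Sept. Of the 4 in no liver table, 1 passed in Sept. and 2 in Dec. The 4 probes named only through the Dec. liver table included 1 past the thresholds in Sept., and the 1 probe named only through the Sept. table did not pass in Dec. Benjamini-Hochberg adjusted p-values from limma were 1.00 for all 13 in Sept. and 0.99 to 0.999 in Dec. In the whole array 1054 probes in Sept. and 1647 in Dec. had an unadjusted p of 0.05 or less, 0 had an adjusted p under 0.05, and the methods' t-test over arrays gave 1345 and 997 unadjusted and 0 adjusted. That test passed 5 members below 0 in Sept. and 4 above 0 in Dec., against 0.75% and 1.19% of all probes tested. The study's Dec. liver tables also list A_05_P249524, A_05_P269349, A_05_P463622 and A_05_P488772, which did not pass it here. Footnotes of the liver tables mark some entries as passing by another p-value but not by this test. This test is therefore not the study's whole calling rule. By limma, as above, 6 passed in Sept. and 10 in Dec. The Sept. count rested on both pool pairs, falling to 0 of 13 without replicate 1 and to 2 of 13 without replicate 2. Within the pool pairs, Sept. means were -0.61 and -0.23 for A_05_P365862 and -0.60 and -0.30 for A_05_P480657, so that pair 1 carried more of both. The Dec. means of A_05_P463622 were 0.46 and 0.96. By pool pair, the Dec. medians of the 12 hemoglobin probes were 0.76 and 0.66.

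Whether the effect of size differed between the lots was tested as Sept. minus Dec. in the same limma fit. The difference was below 0 for 13 of 13 members and past the thresholds for 10, against 1.23% of 33291 probes below 0 and 1.53% above 0, and 6 of the 8 probes named outside the liver tables were among them. Of these 6, 4 are in the liver tables of both lots. Of the 4 members in no liver table, 2 passed, with a median difference of -0.49. The liver tables helped to choose the members, so these shares are a description and no test of them. The difference was largest for A_05_P453042 at -1.32 (SE 0.19) and A_05_P480657 at -1.32 (SE 0.22). For band 3 it was -0.78 (SE 0.17). The 3 members that did not pass were A_05_P441202 at -1.0 (SE 0.54), A_05_P395622 at -0.15 (SE 0.23) and A_05_P332705 at -0.09 (SE 0.26). Adjusted p-values of the difference from limma were 1.00 throughout. With 2 pool pairs against 2, an exact two-sided permutation test of a single probe cannot go below 0.333.

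Opposite calls in the lots were rare on the array. Below 0 in Sept. and above 0 in Dec., each past the thresholds, were 19 of 33291 probes or 0.0571%, and 6 of these 19 were hemoglobin probes, 4 were other probes with a name and 9 had no name. Of the 6, 4 are in the liver tables of both lots, so they were listed for these calls, and A_05_P480657 is in that of Dec. alone. A_05_P365862 is in neither. The Sept. calls of A_05_P480657 and A_05_P365862 were the 2 lost in the random block fit, so the 4 that kept both calls there are those in the liver tables of both lots. By the signs of the single arrays, 76 probes (0.228%) were below 0 on all 4 Sept. arrays and above 0 on all 4 Dec. arrays, among them 4 of the 13.

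**Figure D2:**
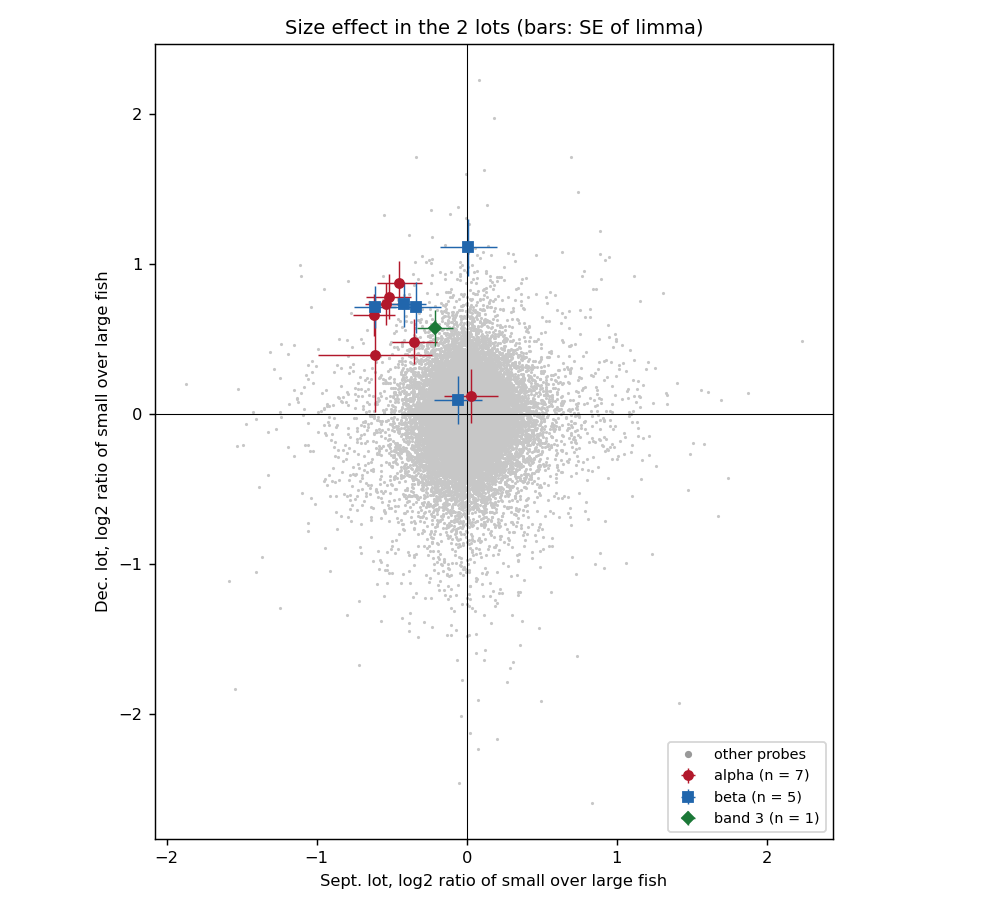
Log2 ratio of small over large fish in Sept. (x axis) against Dec. (y axis) for the 33291 probes with values on all 8 arrays (grey) and for the alpha (circles), beta (squares) and band 3 (diamond) probes with the SE of limma as bars. Most of the 13 lie to the upper left, the beta probe A_05_P488772 lies straight above 0 at 1.11 in Dec., and A_05_P395622 and A_05_P332705 lie at the centre of the grey cloud.

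The dye orientation moved with the size of the Dec. ratios. In Dec. the median of the 13 was 0.96 with small fish in Alexa Fluor 555 and 0.50 with small fish in Alexa Fluor 647, and 10 of 13 were higher in the first orientation, with a median difference of 0.71 against -0.08 over all probes. In Sept. the medians were -0.48 and -0.35 in these orientations. The 2 orientations gave the same sign for 8 of 13 members in Sept. and 11 of 13 in Dec., where 37.9% and 35.6% of all probes did so. The liver tables of calls on these arrays helped to choose the members, so this agreement is a description and no test. Of the 4 members in no liver table, A_05_P332705 and A_05_P395622 changed sign between the orientations in both lots. The others, A_05_P249379 and A_05_P365862, kept it, but in Dec. their size differed by dye. With small fish in Alexa Fluor 647, A_05_P249379 was at about 0 in Dec. (0.01), against 0.95 in Alexa Fluor 555. A_05_P365862 had 0.13 against 1.34. Across all probes the arrays of a dye exchange correlated at -0.131 and 0.057 in Sept. and at -0.144 and 0.0036 in Dec. Arrays with small fish in Alexa Fluor 647 alone gave 3 of 13 members past the thresholds in Sept. and 5 in Dec., against 2.62% and 4.67% of all probes. Those in Alexa Fluor 555 alone gave 7 and 10, against 1.22% and 5.93%. The Dec. calls with Alexa Fluor 647 alone included A_05_P332705 (0.58) and A_05_P395622 (0.60), which passed in neither lot of the main fit. The 3 Sept. calls with Alexa Fluor 647 alone were A_05_P249524, A_05_P449312 and A_05_P453042. In Dec. these did not pass in that orientation (0.30, 0.37 and 0.51), so no probe passed there in opposite directions in both lots. The part of the dyes in the lot difference was not tested further.

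**Figure D3:**
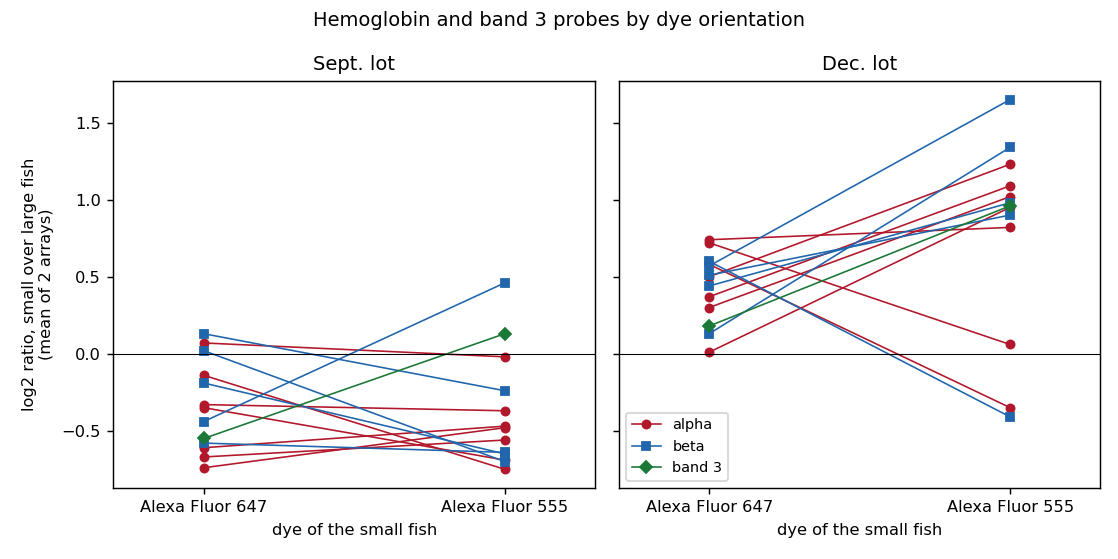
Mean log2 ratio of small over large fish (y axis) over the 2 arrays of each dye of the small fish (Alexa Fluor 647 or 555, x axis), 1 line per probe, for Sept. (left) and Dec. (right), coloured by alpha, beta and band 3. In Dec. 10 of 13 lines rise from left to right and 3 fall, and in Sept. 5 rise and 8 fall.

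Across the 8 arrays the 6 probes past the thresholds in both lots ran closely together, with Pearson's r between 0.81 and 0.99 (median 0.92 over 15 pairs). These values are a description over 8 arrays that share pools and dyes, and the lot difference by which the 6 were chosen is part of them. A_05_P249379 correlated with the 6 at 0.79 to 0.95, A_05_P463622 at 0.79 to 0.88, A_05_P488772 at 0.65 to 0.87 and band 3 at 0.63 to 0.86. A_05_P441202 was looser at 0.29 to 0.67. The probes without a shift went their own way, A_05_P332705 at -0.40 to -0.03 and A_05_P395622 at -0.30 to 0.04. Probes with the same subunit name thus did not all share a profile.

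Other probes resembled the mean profile of the 12 hemoglobin probes, and 33 of the 33279 other probes with values on all 8 arrays had r of 0.9 or more. Band 3 ranked 426 with r = 0.74. The nearest was named cell division control protein 2 homolog (A_05_P311652, r = 0.98), a kinase that drives entry into mitosis, with -0.44 in Sept. and 0.62 in Dec. (SE 0.14 each). After it came 4 other named probes at r = 0.95. They were fam49a-like (A_05_P397522, -0.45 and 0.76), laminin subunit beta-2 (A_05_P397982, -0.11 and 0.61), a basement membrane protein, A-kinase anchor protein 7 (A_05_P432387, 0.01 and 0.50) and ribosomal protein s13 (A_05_P471392, -0.32 and 0.63), a component of the small ribosomal subunit. The nearest unnamed probes were A_05_P474952 (-0.15 and 0.48) and A_05_P352857 (-0.35 and 0.86), both at r = 0.97. All 5 named probes are in the liver tables, which list only probes called on these arrays.

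Other named genes were counted by lists of words in their names, against the shares of all probes given above (1.21% below and 1.52% above 0 in Sept., 2.75% and 2.09% in Dec.). With lists of this size a single call already exceeds those shares, so nothing is read from the counts. Of 8 named probes of heme synthesis, heme breakdown and iron handling, 0 passed above 0 and 1 passed below 0 in Sept., and of the 6 tested in Dec. 0 passed in either direction, with medians of 0.0077 and 0.036. The 1 that passed, in Sept. at -0.54 (SE 0.14), was A_05_P275069, named after 5-aminolevulinate, an intermediate of heme synthesis, and it was not tested in Dec. because values were missing. A probe with a like name, A_05_P467616, had ratios of 0.15 for Sept. and 0.11 for Dec. (SE 0.16 each) The largest ratios of the list were those of 2 of its 3 probes for heme oxygenase, which breaks down heme. They were 0.68 (SE 0.37) in Sept. and 0.21 in Dec. for A_05_P413672 and 0.57 (SE 0.43) and -0.04 for A_05_P275014, and neither passed. Ferritin high chain (A_05_P307532), for an iron storage protein, had -0.10 and -0.07, and hemopexin (A_05_P275779), which binds free heme in plasma, had -0.24 and -0.25. The list of red cell words matched 1 probe, erythrocyte membrane protein band -like 2 (A_05_P258819), whose name alone does not make it a marker of red cells. It had ratios of 0.31 for Sept. and -0.12 for Dec. (SE 0.13 each), and passed in neither lot. Apart from band 3, the red cell words thus found no red cell gene outside the hemoglobins. Whether a probe of the heme list reads a gene of red cells was not determined.

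Markers of other blood cells and of other tissues were counted beside the hemoglobin probes. Over all probes tested 1.21% passed below and 1.52% above 0 in Sept., and 2.75% and 2.09% in Dec. Here too a few calls exceed those shares, and nothing is read from the counts. Of the white blood cell list 14 of 15 named probes were tested in each lot, 1 passed above 0 in Sept. and 2 in Dec., 0 passed below 0, and the medians were 0.08 and 0.09. Those that passed were a probe for the cd9 antigen (A_05_P448732) at 0.40 in Sept., another cd9 probe (A_05_P294587) at 0.47 in Dec. and a T-cell immunoglobulin and mucin domain probe (A_05_P369897) at 0.99 in Dec., all 3 from the liver tables. The plasma protein words matched 24 probes, most of them for proteins that the liver makes, but also a response gene to complement (A_05_P268239) and tissue-type plasminogen activator (A_05_P464162), and 0 passed in Sept. and 2 in Dec., both below 0, with medians of -0.07 and -0.24. The 2 were an apolipoprotein b probe (A_05_P255119), the core protein of lipid particles sent out by the liver, at -0.51 (SE 0.18), and complement component c9 (A_05_P485237), part of the pore-forming complex of complement, at -0.65 (SE 0.22). Of the muscle list 30 of 33 probes were tested in each lot, 2 passed above and 1 below 0 in Sept., 0 above and 1 below 0 in Dec., with medians of -0.0017 and 0.034. The 2 above 0 were troponin I of slow skeletal muscle (A_05_P250684) at 1.15 (SE 0.42) and a smooth muscle myosin regulatory light chain (A_05_P425467) at 0.78 (SE 0.23), which had -0.09 and -0.32 in Dec. Fast myotomal muscle troponin-t-1 (A_05_P470352) was below 0 in both lots, at -0.83 and -0.39. All 3 are named only through the liver tables, and the muscle words also matched non-muscle myosins. The part of any of these lists in the hemoglobin ratios was not tested.

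**Figure D4:**
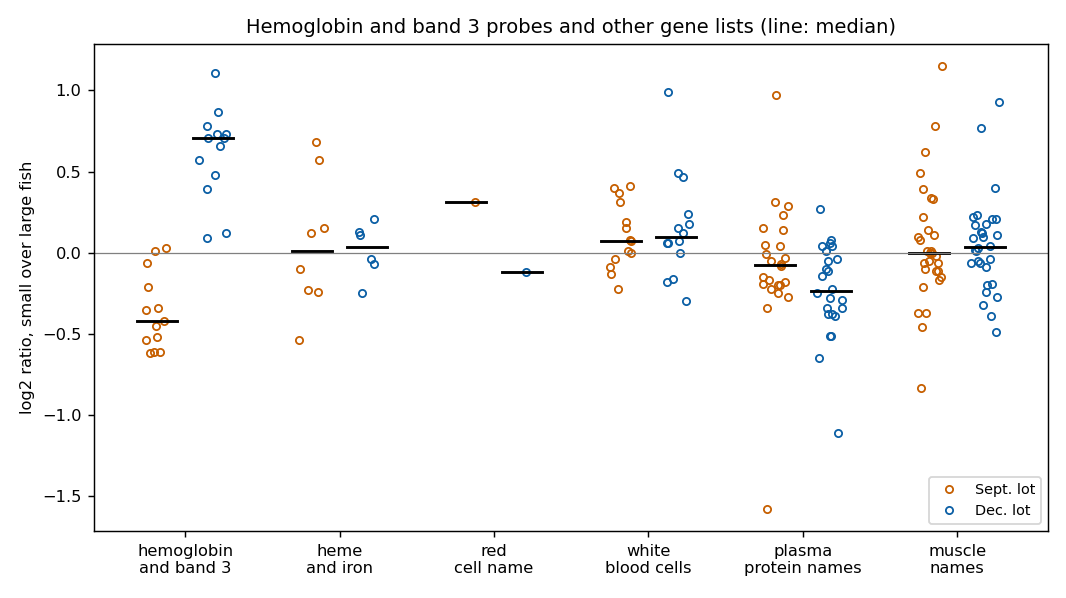
Log2 ratio of small over large fish (y axis) of the 13 hemoglobin and band 3 probes and of the probes of 5 other gene lists (x axis), 1 circle per probe tested, Sept. in orange and Dec. in blue, with a black line at each median. The medians of the 13 probes lie at -0.42 and 0.71, and those of the lists with more than 1 probe lie between -0.24 and 0.09.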

How the data were processed

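Total RNA of liver was extracted with TRIzol, mRNA was isolated from it and pooled over 5 fish, and cDNA labelled with Alexa Fluor 555 or 647 was hybridized to Agilent salmonid arrays. The authors quantified spots with GenePix Pro, dropped bad spots by hand and applied lowess normalization in GeneSpring. What they deposited is 1 log2 ratio per probe and array, used here without further centring. Of 43663 lines 60 control spots were left out, and arrays carried values for 36754 to 41918 of the 43603 probes. Single-channel signals were not analysed here, so the signal behind a ratio is unknown. The number of arrays and the spread between pool pairs limit the precision given here.

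The direction (small over large, with no array turned) was taken from the study's own reading of the arrays, since the labels do not state it. The unturned mean of a lot's 4 arrays gives 725 of 726 entries of the study's liver tables within 0.02. The mean with signs turned gives 0. Those entries come from these same values, so the match shows how the study read the arrays and is no separate check. The correlations between arrays of a dye exchange, near 0 across all probes, do not settle the direction either. The arrays of a dye exchange were averaged (avearrays) and the 4 pool pairs fitted in limma 3.58.1 (R 4.3.3), with a mean per lot and a shared spread. A lot was tested where a probe had values on its 4 arrays, and p-values were adjusted over all probes tested (Benjamini-Hochberg). The p-values rest on the spread between the pool pairs, which hold different fish of the same families. Limma draws the spread of each probe towards that of all probes. For probes with close pool pairs, such as band 3 (-0.22 and -0.20 in Sept., SE 0.12), the SE rests largely on the spread of all probes.

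The members, lists and alternatives were chosen with earlier results of these data known. Named are the members, up to 5 named and 2 unnamed probes most like the mean hemoglobin profile, and up to 4 list probes past the thresholds. The probes of the heme and red cell lists given without a call were added after their values were seen. List names were matched to whole words for transferrin, albumin and complement after the names were seen, since parts of words had also matched unrelated genes. Of all probes 1494 have a name. Same-numbered pool pairs of the lots share no fish, and their deviations correlated at 0.0295. Alternatives covered the methods' t-test, a dye term with pool pair as random block, a replicate block, lots alone, robust fitting, centring, scaling, filters, single dye orientations, folds, turned signs and each replicate left out. The code was tested on simulated data.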

Additional observations from a re-analysis of the deposited data

Results flagged for a closer look

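For 10 of the 13 probes the size effect differed between the lots in the limma contrast at the unadjusted thresholds, with adjusted p-values of 1.00. Sept. minus Dec. was -0.83 for A_05_P249379, -1.28 for A_05_P249524, -1.27 for A_05_P449312, -1.32 for A_05_P480657 and -1.30 for A_05_P491417 among the alpha probes. Among the beta probes it was -1.15 for A_05_P365862, -1.32 for A_05_P453042, -1.05 for A_05_P463622 and -1.10 for A_05_P488772. For band 3 (A_05_P269349) it was -0.78. Of these 10, 6 are named outside the liver tables, and the other 4 are known by name only through liver tables of calls on these arrays. Of the 6, 4 also stand in the liver tables of both lots.

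One array stood apart from the other 3 of its lot. For the beta probe A_05_P463622 the Dec. array of pool pair 1 with small fish in Alexa Fluor 647 was at 0.0029, against 0.87 to 1.05 on the others, a gap of 0.831 of the whole range, just past Dixon's critical value for 4 values. Of 26 sets of 4 arrays looked at, this was the 1 singled out, and chance gives about 1 in 20.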

How the results depend on the processing

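Main counts of members past the thresholds were 6 of 13 in Sept. (below 0), 10 of 13 in Dec. (above 0) and 10 of 13 for Sept. minus Dec. (below 0). They stayed within 1.5 times under a dye term with pool pair as random block (4, 10 and 10, without the Sept. calls of A_05_P480657 and A_05_P365862), lots alone, robust fitting, centring, scaling, a looser filter and no fold threshold. Counts that moved further were 3, 5 and 6 with small fish in Alexa Fluor 647 only, 4 in Dec. by the methods' t-test, and 2 in Sept. at a fold of at least 1.5. The shares of all probes in the same directions were 2.62%, 4.67% and 1.27% with Alexa Fluor 647 only. They were 1.19% in Dec. by the t-test and 0.61% in Sept. at the stricter fold. Leaving out a Sept. replicate lowered the Sept. count, as given above. Counts without a Dec. replicate are left out, since more of all probes then passed too, in Dec. and for the difference. When an arm had 1 pool pair left, it was assumed to vary like the other lot. The replicate block on pool pair number, which pairs pools that share only a number, gave 7, 10 and 11. The cause of these changes was not tested.

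Directions changed mainly for probes near 0. In Alexa Fluor 555 only, A_05_P332705 was -0.017 in Sept. and -0.35 in Dec. (difference 0.33), A_05_P269349 was 0.13 in Sept., and A_05_P395622 was -0.41 in Dec. (difference 0.17). In Alexa Fluor 647 only, Sept. values were 0.13 for A_05_P395622, 0.024 for A_05_P463622 and -0.44 for A_05_P488772, which was -0.0013 with centred arrays. With 1 replicate left out, A_05_P332705 ranged from -0.08 to 0.13 in Sept., -0.16 to 0.39 in Dec. and -0.37 to 0.18 for the difference. A_05_P395622 ranged from -0.14 to 0.32 in Dec. and -0.38 to 0.084 for the difference, A_05_P441202 from -0.36 to 1.14 in Dec., past the thresholds without Dec. replicate 2, and A_05_P488772 from -0.23 to 0.25 in Sept.

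With signs turned on arrays with small fish in Alexa Fluor 555, a reading that matched 0 table entries, 1, 3 and 1 members passed in the stated directions. The shares of all probes were then 6.66%, 7.64% and 1.7%, against 1.21%, 2.09% and 1.23% in the main fit. Sept. values then changed sign for A_05_P249379 (0.019), A_05_P480657 (0.31), A_05_P491417 (0.17), A_05_P365862 (0.23), A_05_P395622 (0.19), A_05_P453042 (0.034), A_05_P463622 (0.36) and A_05_P488772 (-0.45). Dec. values and differences did so for A_05_P249379 (-0.47, 0.49), A_05_P249524 (-0.36, 0.31), A_05_P449312 (-0.36, 0.29), A_05_P480657 (-0.36, 0.67), A_05_P491417 (-0.042, 0.21), A_05_P269349 (-0.39, 0.047), A_05_P365862 (-0.61, 0.83), A_05_P453042 (-0.19, 0.23), A_05_P463622 (-0.27, 0.63) and A_05_P488772 (-0.54, 0.091). Each array and each orientation holds few values, which limits what can be said of single probes.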
